A study of Danio rerio with 6 samples.

Results

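The broad CTCF regions of wild-type embryos at 48 h post fertilization (hpf) are 867 stretches of DNA where both replicates had an unusually wide CTCF peak. They were selected on measured widths. In each wild-type (WT) 48 hpf list the widest 5% of peaks were kept, at or above 484 bp in replicate 1 and 486 bp in replicate 2, and a region is a merged stretch where kept peaks of both replicates overlapped by at least 1 bp. The regions make up 3.62% of the 23959 WT 48 hpf sites, a site being a merged region with a peak in both replicates. The 23092 other WT 48 hpf sites serve below for comparison.

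CTCF was mapped by ChIPmentation, a form of ChIP-seq that tags the immunoprecipitated chromatin with the transposase Tn5, in pools of whole embryos. The groups were homozygous ctcf-/- embryos at 48 hpf, WT embryos at 48 hpf and WT embryos at 24 hpf, with 2 replicates in each. The ctcf-/- embryos are zygotic mutants made with CRISPR/Cas9, whose deletion leads to an early stop codon, and they start development with CTCF from the mother. The antibody is specific for zebrafish CTCF, and the study does not state which part of the protein it binds. The predicted truncated protein lacks the C-terminal part of CTCF and most of its zinc fingers. The paper expects that it could not bind chromatin. A western blot in the paper used an antibody to the N-terminal end and showed neither CTCF nor a truncated protein in ctcf-/- embryos at 48 hpf. By immunofluorescence, the paper no longer detected nuclear CTCF from the mother in these mutants at 24 hpf. Whole embryos mix all tissues, so a wide peak in a pool cannot be told apart from narrower peaks at nearby positions in different cells. Nor can lower binding in every cell be told apart from binding in fewer cells.

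CTCF is a zinc-finger protein that binds a long DNA motif and holds loop-extruding cohesin in place, and its sites are found at loop anchors and at the boundaries of topologically associating domains. A factor bound at a single motif usually gives a narrow, symmetric peak. A wide peak can hold several neighbouring binding positions, a strong signal that stays over the calling threshold far from its summit, or a stretch of raised background. The regions are therefore described by their width in every list, by the number and place of their summits, and by the signal and background under them.

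The 6 lists differed in depth. The genome background, recovered from the deposited values and used as a measure of relative depth, was 8.50 tags per 10 kb in ctcf-/- replicate 1 and at most 4.00 in ctcf-/- replicate 2. It was 19.8 and 17.9 in the WT 48 hpf replicates, and 44.0 and 12.4 in the WT 24 hpf replicates. The lists held 2717 and 1706 peaks in ctcf-/- embryos, 31014 and 33130 in WT embryos at 48 hpf, and 67512 and 26350 in WT embryos at 24 hpf. WT 24 hpf replicate 1 stands apart by depth and by number of peaks, so the main results that use it are also given without it. With 2 libraries in a group, an exact two-sided permutation test over libraries cannot give a p-value below 0.333, so groups are compared by the values of each list. Intervals on shares are exact 95% binomial (Clopper-Pearson) intervals over regions and cover counting error only.

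The broad regions had a median length of 600 bp, with quartiles at 557 and 669.5 bp and a range of 490 to 1273 bp. Their widest peak had a median width of 557 bp in WT 48 hpf replicate 1, against 263 bp at other sites, and of 566 bp in replicate 2, against 272 bp. These widths chose the regions and are given as a description. Of the 1552 wide peaks of replicate 1, 685 gave no region, and all but 6 of those had a narrower peak in replicate 2, with a median width of 404 bp. Of the 1661 wide peaks of replicate 2, 794 gave no region, and 786 of those had a narrower peak in replicate 1, with a median of 395.5 bp. The threshold thus cuts a continuous range of widths. Just inside it, chr19:48388796-48389288 had peaks of 488 and 486 bp in the WT 48 hpf replicates, chr2:34113057-34113566 had 495 and 486 bp, and chr13:49511307-49511807 had 501 and 486 bp. Just outside it, chr8:3186889-3187417 had 483 and 529 bp, chr22:16783837-16784579 had 483 and 714 bp, and chr18:18002191-18002783 had 483 and 557 bp. Coordinates are on the GRCz10 (danRer10) assembly.

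The WT 24 hpf lists were not used by the rule. All 867 broad regions had a peak in WT 24 hpf replicate 1, and 859 had one in replicate 2. A WT 24 hpf site was found at 859 broad regions (99.1%, interval 98.2 to 99.6%), against 74.1% of other sites and 75.0% of all WT 48 hpf sites. This gap of 25.01 percentage points rests mainly on replicate 2, where 99.1% of broad regions and 76.0% of other sites had a peak. In the deeper replicate 1 the shares were 100% and 94.3%, a gap of 5.703 points. Among sites of like WT 48 hpf signal (summit pileup, defined below), the gap was smaller at high pileup. In the top 10% of sites by pileup, which held 447 of the broad regions, the shares at a WT 24 hpf site were 100% and 99.03%. In the next 10% they were 100% and 96.66%, and then 98.20% and 94.49%. They lay further apart in the bins below, at 96.30% and 89.80% and then 94.74% and 84.68%. In the next bin down, with 22 broad regions, they were 100% and 76.83%, nearly as far apart as over all sites. Peaks whose local background (described below) was 20 or more times the genome background were also dropped from each of the 6 lists. The gap at a WT 24 hpf site was then 12.9 points. In WT 24 hpf replicate 2 such peaks lay at 146 of the 859 broad regions with a peak (17.00%), against 2.045% of other sites with a peak. The regions were wide at this stage as well. The widest peak had a median of 668 bp (quartiles 587 and 777.5 bp) in replicate 1, against 379 bp at other sites, and of 470 bp (351 and 585 bp) in replicate 2, against 247 bp.

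Each list's own 95th percentile of width sets a peak against the other peaks of its library. At or above it were 627 of 867 broad regions (72.3%, interval 69.2 to 75.3%) in WT 24 hpf replicate 1, where 13.2% of all WT 48 hpf sites with a peak passed. In replicate 2 it was 433 of 859 (50.4%, interval 47.0 to 53.8%), where 6.91% of all sites passed. In both lists together 350 of 859 regions passed (40.7%, interval 37.4 to 44.1%), against 2.11% of other sites and 3.96% of all sites. The share was higher at broad regions in each replicate, so it did not rest on the deeper library. Looked at from the earlier stage, 694 regions were wide in both WT 24 hpf lists by the same rule. Of these, 350 (50.4%) overlapped a broad region of 48 hpf, which is 40.4% of the broad regions, 336 lay at another WT 48 hpf site and 8 at none. Of the 1325 peaks kept as wide in WT 24 hpf replicate 2 alone, 433 (32.7%) overlapped a broad region, which is 49.9% of the broad regions, 804 lay at another WT 48 hpf site and 88 at none.

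The widths at 24 hpf also differed from those of other sites with like signal. At WT 48 hpf sites in the top 10% by summit pileup, the number of tags stacked at the summit, 48.8% of the broad regions were wide in both WT 24 hpf lists, against 5.34% of other sites. In WT 24 hpf replicate 2 alone it was 60.9% against 12.2%. Within this top 10% the median WT 48 hpf pileup was 78 tags at broad regions and 64.5 at other sites, so the sites were also cut into 5 equal bins by pileup, a step added after the data were seen. The shares wide in both lists were 44.9 to 52.8% at broad regions and 3.43 to 10.4% at other sites over the 5 bins, and the intervals did not overlap in any bin. In WT 24 hpf replicate 2, broad regions with a summit pileup of 10 to 20 tags had a median width of 331 bp (n = 177), against 227 bp at other sites (n = 8815) of the same pileup. The 350 regions wide at both stages were somewhat longer and had more signal than the other 517. Their median length was 642.5 bp, against 584 bp, and their median WT 48 hpf pileup was 61.2 tags, against 48.5.

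In ctcf-/- embryos the remaining peaks at these regions were narrow. The median width was 226.5 bp in ctcf-/- replicate 1 (244 regions with a peak) and 213.5 bp in replicate 2 (248 regions), against 198 and 189 bp at other sites. The ctcf-/- peak covered a median of 37.3% of the region's length in replicate 1 and 35.2% in replicate 2, while the widest peak covered 109% and 77.4% in the WT 24 hpf replicates. By the list's own 95th percentile of width, 29 of 244 regions passed in replicate 1 (11.9%, interval 8.11 to 16.6%), where 8.80% of all sites with a peak did. In replicate 2 it was 32 of 248 (12.9%, interval 9.0 to 17.7%), where 5.88% did. In ctcf-/- replicate 1 the share of broad regions was thus close to the background.

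Pileup, not normalized for depth, was lower as well. The median summit pileup of the ctcf-/- peaks was 12 and 13 tags, over the 244 and 248 broad regions with such a peak. Over all 867 broad regions it was 54 and 54 tags in the WT 48 hpf replicates. In the WT 24 hpf replicates it was 85 and 34 tags, over 867 and 859 regions with a peak. At 10 to 20 tags, ctcf-/- peaks at broad regions had a median width of 214 bp in replicate 1 and 212 bp in replicate 2. WT 48 hpf peaks of the same pileup at broad regions had 549 bp (n = 39) and 538.5 bp (n = 40). The rule set these to at least 484 and 486 bp, so this contrast was fixed by the selection. At other sites with 10 to 20 tags the genotypes lay closer. The medians there were 199 and 194.5 bp in the ctcf-/- replicates and 220 and 229 bp in the WT 48 hpf replicates. The 2 genotypes differ in depth as well as in CTCF, and the part of depth in the narrower and lower peaks was not tested.

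**Figure D1:**
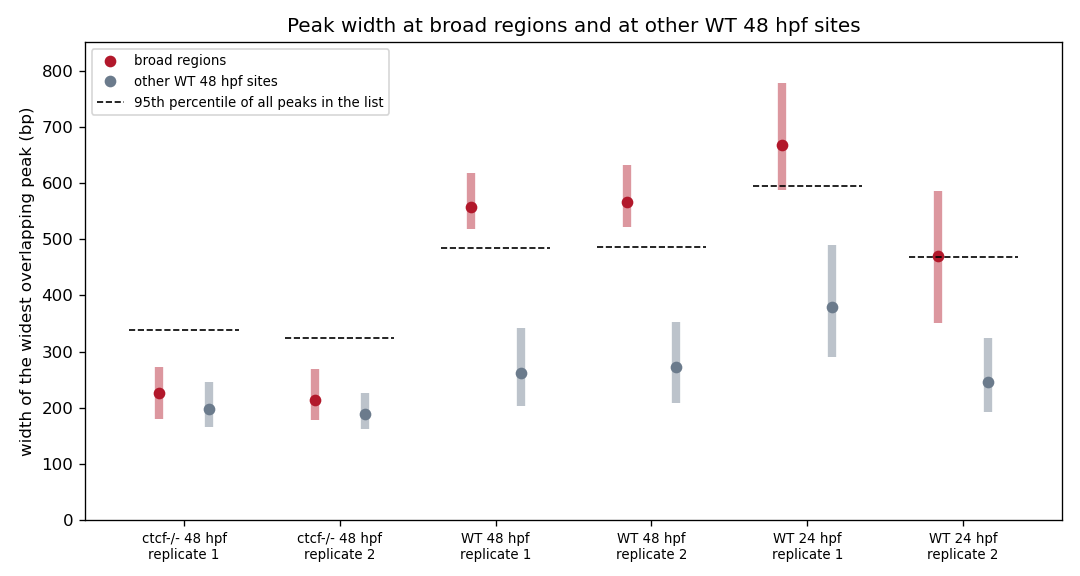
Width of the widest peak overlapping each broad region (red) or other WT 48 hpf site (grey) in the 6 lists, in bp. Points are medians over the regions with a peak, bars run from the first to the third quartile, and dashed lines mark the 95th percentile of all peaks in the list. The WT 48 hpf widths chose the regions. The median of broad regions was also high at 24 hpf (668 and 470 bp), and was 226.5 and 213.5 bp in ctcf-/- embryos.

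Each peak in the lists has a single summit, so a region shows several summits either as several peaks within a list or as summits at different places in different lists. Several peaks in a list were uncommon. At least 1 of the 6 lists split the region into 2 or more peaks at 78 broad regions (9.0%, interval 7.18 to 11.1%), against 3.15% of other sites and 3.36% of all sites. The number was 5 and 7 regions in the ctcf-/- replicates and 13 and 3 in the WT 48 hpf replicates. It was 26 and 44 in the WT 24 hpf replicates, where 1 region had 3 peaks. The excess was not found in every list. In WT 48 hpf replicate 2 the share was 0.346% of broad regions, below the 0.9137% of other sites. In WT 48 hpf replicate 1 it was 1.499% against 0.7838%. The WT 24 hpf replicates had 2.999% against 0.9874% and 5.075% against 0.8531%. The ctcf-/- replicates had 0.5767% against 0.02598% and 0.8074% against 0.01732%. Longer regions leave more room for a further peak, and this was not corrected for.

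The WT 48 hpf replicates placed their summits close together at most broad regions. Their summits were a median of 15 bp apart at broad regions, against 23 bp at other sites, and over 100 bp apart at 62 broad regions (7.15%, interval 5.53 to 9.07%), against 7.31% of other sites and 7.30% of all sites. Distances over 200 bp were more common at broad regions, at 23 of 867 (2.65%) against 363 of 23092 other sites (1.57%), with the largest at 757 and 499 bp. Wider peaks leave more room for summits to lie apart, here and in the pairs of lists below, and this was not corrected for. Nor were these shares matched for signal, which was higher at broad regions. When width was instead ranked within bins of −log10 q, 99 of the 475 regions so chosen (20.8%) had summits over 100 bp apart.

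WT 24 hpf replicate 1 was the exception among the WT lists. Its summit was over 100 bp from that of WT 48 hpf replicate 1 at 278 broad regions (32.1%, interval 29.0 to 35.3%), against 14.1% of other sites and 14.8% of all sites. The distance from WT 48 hpf replicate 2 passed 100 bp at 31.7% of broad regions and 14.2% of other sites. The excess was smaller in the other WT 24 hpf library. The summit of WT 24 hpf replicate 2 was over 100 bp from WT 48 hpf replicate 1 at 86 of 859 broad regions (10.01%, interval 8.09 to 12.2%), against 8.11% of other sites and 8.19% of all sites. It was over 200 bp away at 5.82% of broad regions and 2.07% of other sites, while for WT 24 hpf replicate 1 these shares were 21.0% and 5.72%. Between the 2 WT 24 hpf replicates the summits were that far apart at 268 broad regions (31.2%), against 14.7% of other sites and 15.5% of all sites. The larger shift was thus found in 1 library of the stage. That library is 3.55 times as deep as its replicate by genome background, and the part of depth was not tested.

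At 228 broad regions (26.3%) the WT 48 hpf summits were within 100 bp of each other and the summit of WT 24 hpf replicate 1 was over 100 bp from both. The same held at 8.14% of other sites. The median shift was 246 bp (quartiles 193 and 331 bp), against 202 bp at other sites. In those broad regions the summits of the remaining lists mostly lay nearer to the WT 48 hpf position: in 25 of 32 regions with a peak for ctcf-/- replicate 1, in 33 of 37 for ctcf-/- replicate 2, and in 196 of 224 for WT 24 hpf replicate 2. The WT 24 hpf replicate 1 position was the nearer one in 28 of the 224 for its own replicate. These regions were picked because the WT 48 hpf summits agreed. The same counts are not given for other sites, so they do not set broad regions apart. A distance over 100 bp between the summits of WT 48 hpf replicate 1 and WT 24 hpf replicate 1 alone (the 278 regions above) was less common at the highest signal. It was found at 19.7% of broad regions in the top 10% of sites by pileup, against 5.61% of other sites. In the next 10% it was 41.6% against 7.78%, and in the bins below, as far as these held 20 or more broad regions, it was 38.7 to 59.1% against 9.71 to 14.9%.

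**Figure D2:**
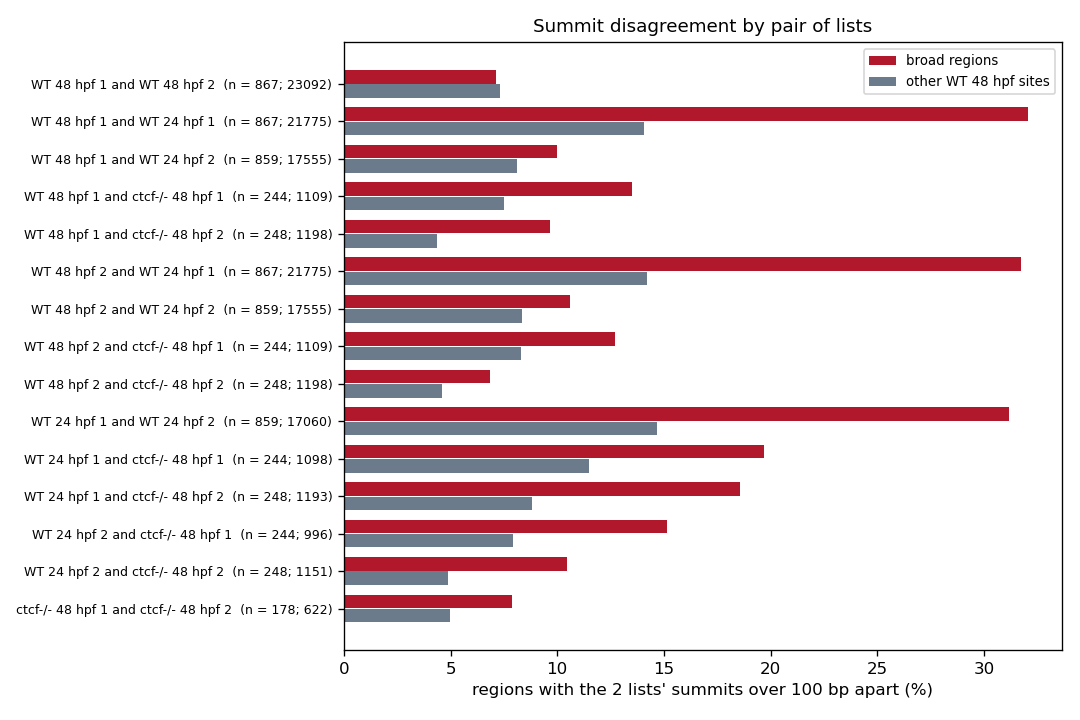
Percent of broad regions (red) and other WT 48 hpf sites (grey) at which the summits of 2 lists were over 100 bp apart, for each of the 15 pairs of lists, with the number of broad regions and of other sites in parentheses. The 3 pairs with the longest red bars each include WT 24 hpf replicate 1 and another WT list (31.2 to 32.1%), while the WT 48 hpf pair is at 7.15%.

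In ctcf-/- embryos the summit mostly stayed in place. It was over 100 bp from that of WT 48 hpf replicate 1 at 33 of 244 broad regions in ctcf-/- replicate 1 (13.5%, interval 9.50 to 18.5%), where other sites had 7.48% and all sites 8.57%. In ctcf-/- replicate 2 it was 24 of 248 (9.68%, interval 6.30 to 14.1%), where other sites had 4.34% and all sites 5.26%.

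To count summit positions, the summits of the 4 WT lists inside a region were sorted. A gap over 100 bp between neighbouring summits began a new position. Summits outside the region were left out, and a region with 1 position can span more than 100 bp. By this count 547 broad regions had 1 summit position, 289 had 2 and 31 had 3. Regions with more than 1 position were 36.9% of broad regions and 11.6% of other sites, and the median span of their summits was 286.5 bp, against 209 bp. Room for further positions grows with the length of a region, and this was not corrected for. Much of the excess came with WT 24 hpf replicate 1. Without it the shares were 17.2% and 9.67%, and with the WT 48 hpf lists alone 8.77% and 8.42%. The 320 regions with several positions had a median WT 48 hpf pileup of 43 tags and a median fold enrichment percentile of 74.0 within the list, against 63 tags and 89.0 in the 547 regions with a single position. Their median lengths were 621.5 and 591 bp. Without WT 24 hpf replicate 1, 149 regions had several positions, with a median pileup of 35.5 tags, a median percentile of 66.1 and a median length of 624 bp, against 56.8 tags, 86.6 and 595 bp in the 718 with a single position.

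Within the peak the summit was off centre. In WT 48 hpf replicate 1 it lay a median of 86.5 bp from the middle of the peak at broad regions, against 20 bp at other sites. As a share of the distance from middle to edge this was 31.0%, against 16.4%. The share was 30.7% and 16.7% in WT 48 hpf replicate 2, 31.5% and 18.8% in WT 24 hpf replicate 1, and 24.4% and 17.0% in WT 24 hpf replicate 2, so broad regions had the more lopsided peaks in each of the 4 WT lists.

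The maps of single regions show these forms. The widest region by mean peak width with low background on the assembled chromosomes, chr12:48301086-48302135, had a peak of 1034 and 1050 bp in the WT 48 hpf replicates, with summits 887 and 894 bp from its start. WT 24 hpf replicate 1 also gave a single peak there, of 1125 bp with its summit at 915 bp, but replicate 2 split the region into 2 peaks, the wider 601 bp long. The shared summit is near the end of the region, and neither ctcf-/- list had a peak.

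At chr2:33225322-33226275 the WT 48 hpf peaks were 915 and 946 bp wide and had their summits near the middle, at 486 and 459 bp. The summit of WT 24 hpf replicate 1 lay at 785 bp, while replicate 2 had a peak of only 371 bp with its summit at 501 bp. At chr15:20903347-20904311 it was WT 24 hpf replicate 2 that differed, with its summit at 760 bp. The other 3 WT lists had theirs at 168 to 225 bp. At chr5:31910408-31911353 the peaks were 946 and 881 bp wide in WT embryos at 48 hpf and 1100 and 626 bp at 24 hpf, yet the 4 summits fell within 14 bp. A wide region can thus have summits at a single place in every WT list.

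At chr18:45892680-45893598 summits fell at 129 to 137 bp in 3 WT lists and at 800 bp in WT 24 hpf replicate 1. At chr11:28195277-28196237 the WT 48 hpf replicates themselves disagreed, at 609 and 390 bp, and the region had 3 summit positions over the WT lists. None of these 6 widest regions with low background had a ctcf-/- peak, and their summit pileups in WT embryos at 48 hpf ran between 40 and 105 tags.

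Among the regions with 2 peaks in WT 24 hpf replicate 2, chr24:42186288-42187110 and chr20:1257546-1258381 had narrow ctcf-/- peaks in both replicates. At chr24 these were 255 and 278 bp wide, in place of 823 and 801 bp in WT embryos at 48 hpf. At chr20 they were 173 and 174 bp wide, in place of 799 and 833 bp. Unlike these, chr23:16246581-16247518 and a region of the unplaced sequence KN149693v1, from 38282 to 39232, had low fold enrichment for their pileup. The chr23 region had 79 and 55 tags in WT embryos at 48 hpf with fold enrichments of 3.50 and 3.78, under a local background 77.8 and 54.3 times the genome background. Its summits were at 667 and 110 bp in those replicates. In ctcf-/- embryos the chr23 region had peaks in both replicates, with summit pileups of 100 and 41 tags. The unplaced region had 59 and 44 tags with fold enrichments of 4.17 and 4.53, under a local background 47.7 and 35.1 times the genome background.

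**Figure D3:**
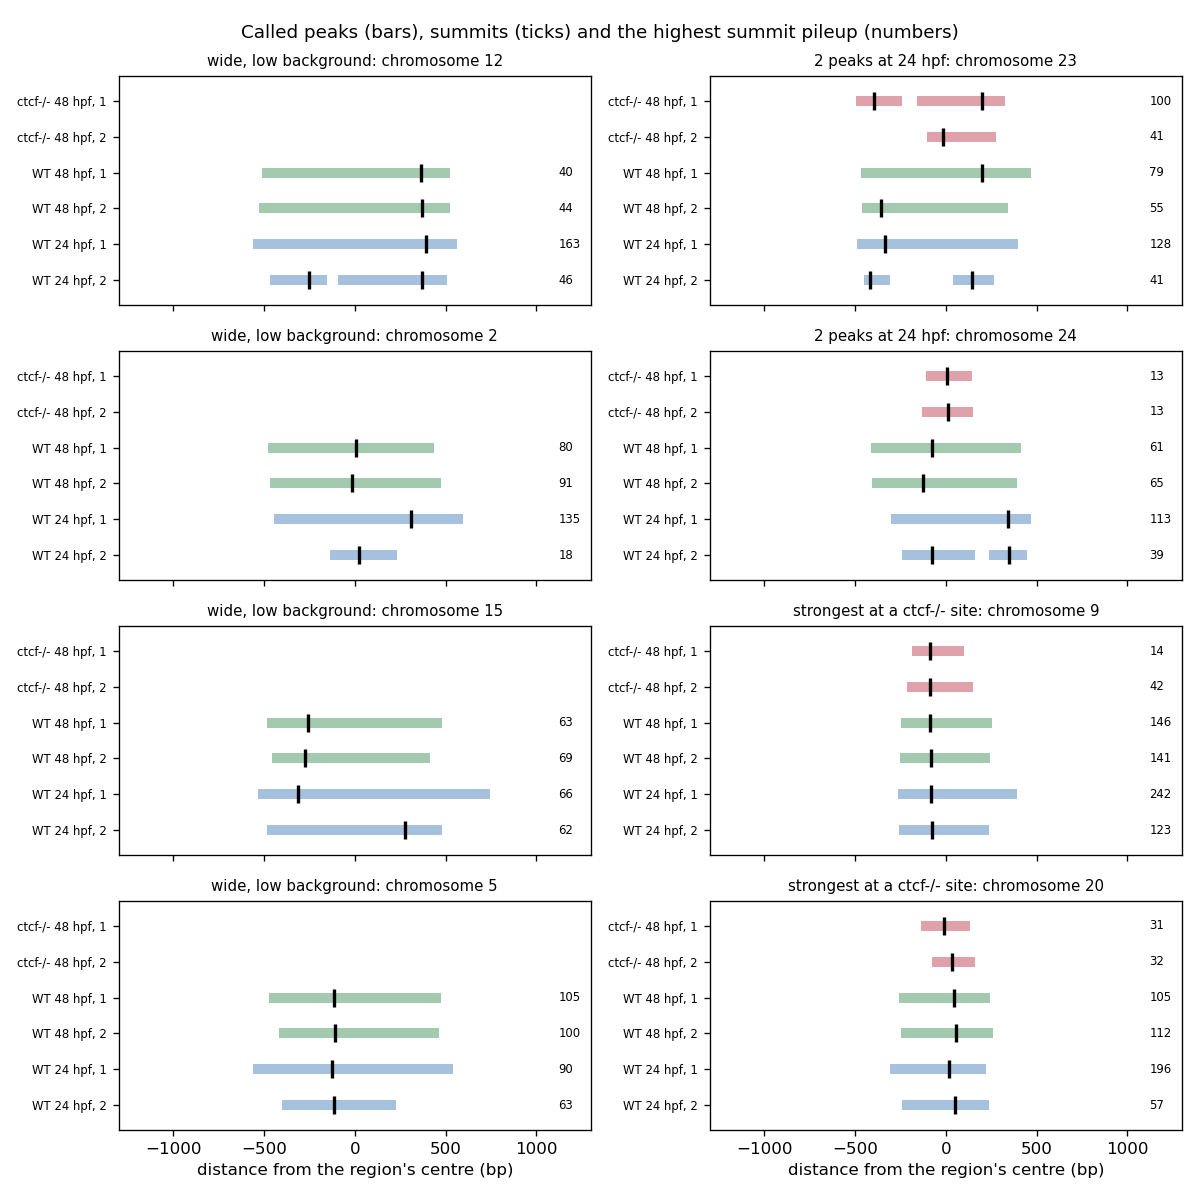
Called peaks (bars) and summits (ticks) of the 6 lists at 8 broad regions, by distance from the region's centre in bp, with the pileup of the highest summit in tags at the right of each row. The left column shows 4 of the widest regions with low local background, which have no ctcf-/- peak. The right column shows regions with 2 peaks in WT 24 hpf replicate 2 and the strongest regions at a ctcf-/- site. In the right column the ctcf-/- peaks are shorter than those of WT embryos at 48 hpf. At the chromosome 23 region, however, every ctcf-/- peak is longer than both peaks of WT 24 hpf replicate 2.

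Broad regions carried more signal than other sites. The median summit pileup was 54 against 21 tags in WT 48 hpf replicate 1, 54 against 20 in replicate 2, 85 against 35 in WT 24 hpf replicate 1 and 34 against 16 in replicate 2. Fold enrichment is the summit pileup over the local background, with 1 tag added to each. Its median percentile within the list was 83.3 in WT 48 hpf replicate 1, against 59.8 at other sites. In replicate 2 it was 84.6, against 62.3. At 24 hpf the median percentiles were 86.1 and 84.8, against 74.7 and 61.7. Called width depends on signal, and the WT 48 hpf values come from the peaks that chose the regions. Across other sites width and pileup went together, with a Spearman rho of 0.62 in WT 48 hpf replicate 1 (n = 23092). Among the broad regions, a set already restricted in width, rho was 0.15 in that list and 0.17 in replicate 2 (n = 867). It was 0.18 in WT 24 hpf replicate 1 and 0.68 in replicate 2 (n = 859). Each point is a region and both values come from the same library.

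Some broad regions had little signal, and 39 had a pileup of only 10 to 20 tags in WT 48 hpf replicate 1. In the plot of width against pileup they form the left edge of the cloud, and the widths near the threshold run over the whole range of pileups.

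**Figure D4:**
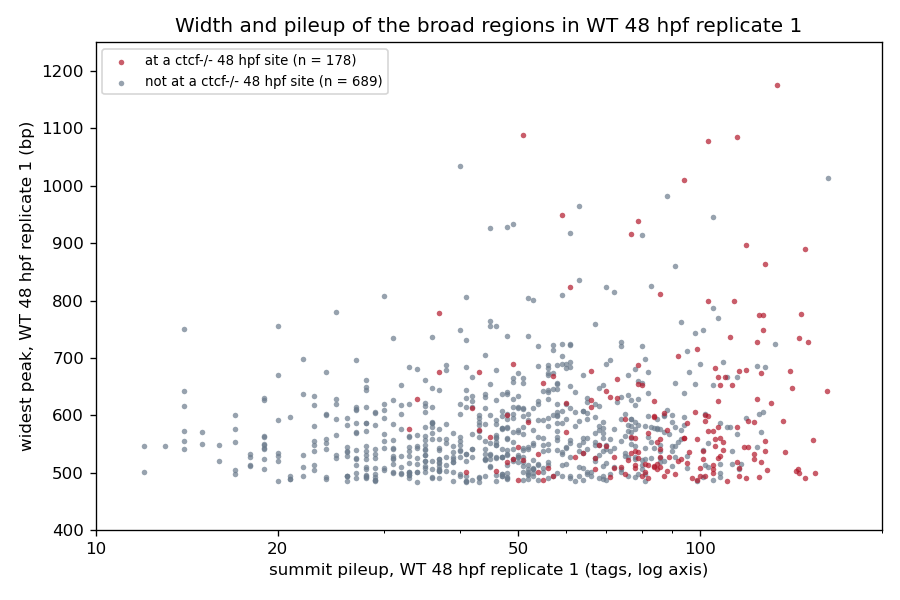
Width of the widest peak in bp and summit pileup in tags (log axis) of the 867 broad regions in WT 48 hpf replicate 1, coloured by whether the region lay at a ctcf-/- site. The 178 regions at a ctcf-/- site lie to the right, at a median mean pileup of 90.5 tags over the WT 48 hpf replicates against 48 tags for the other 689, while median widths were 568 and 563 bp.

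The local background under broad regions was also raised. It had a median of 8.15 times the genome background in WT 48 hpf replicate 1, against 3.14 at other sites, and of 8.81 against 3.34 in replicate 2. It was 6.29 against 2.79 in WT 24 hpf replicate 1 and 7.42 against 3.47 in replicate 2. Whether this background was taken from an input control or from the library itself is not given. If it came from the library, over windows of up to 10 kb that hold the peak's own tags, it would move with the signal. It was at least 20 times the genome background in both WT 48 hpf lists, called high here, at 39 broad regions (4.50%, interval 3.22 to 6.10%), against 0.844% of other sites and 0.977% of all sites. These 39 regions were long, with a median of 797 bp against 596 bp in the other 828. Their median fold enrichment percentile was lower, at 51.1 against 84.4, but their median WT 48 hpf pileup was higher, at 95.5 against 52.5 tags.

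They include the 3 regions with the largest mean peak width over the WT 48 hpf replicates. At chr15:7293081-7294275 the peaks were 1175 and 1189 bp wide in WT embryos at 48 hpf, 1173 and 1175 bp at 24 hpf, and 1177 and 1088 bp in ctcf-/- embryos. Their summit pileups were 162 and 103 tags in ctcf-/- embryos, 134 and 101 tags in WT embryos at 48 hpf and 161 and 71 tags at 24 hpf. Its ctcf-/- peaks were thus about as wide as its WT peaks. The local background there was 147 times the genome background in ctcf-/- replicate 1, and 53.1 and 42.1 times in the WT 48 hpf replicates. The next by this measure, chr25:36871691-36872862, was wide in WT embryos at both stages (1085 and 1172 bp at 48 hpf, 1253 and 1130 bp at 24 hpf) and narrow in ctcf-/- embryos (247 and 236 bp). The third, chr19:48369410-48370547, had a peak of 217 bp in ctcf-/- replicate 1 and none in replicate 2, against 1013 and 1121 bp in WT embryos at 48 hpf and 1984 and 1162 bp at 24 hpf.

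Wide ctcf-/- peaks were also taken by each list's own 95th percentile of width, 339 bp in replicate 1 and 323.8 bp in replicate 2. These thresholds lie below those of the WT 48 hpf lists, and the number of peaks kept follows from the cut. The widest 5% were 138 peaks in ctcf-/- replicate 1, of which 29 lay at a broad region, 86 at another WT 48 hpf site and 23 at none, and 86 peaks in replicate 2, of which 32, 53 and 1 did. High local background was found at 98 of the 138, where 11.8% of all peaks of ctcf-/- replicate 1 had it. In replicate 2 it was found at 46 or more of the 86, where 11.9% or more of all peaks had it. The replicate 2 values are lower limits, since its genome background is an upper bound. By these thresholds 47 regions were wide in both ctcf-/- lists, 15 of them at a broad region and 31 at another WT 48 hpf site.

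Of the 867 broad regions, 178 (20.5%, interval 17.9 to 23.4%) lay at a ctcf-/- site, a region with overlapping peaks in both ctcf-/- replicates, against 2.69% of other sites and 3.33% of all sites. A further 66 had a peak in ctcf-/- replicate 1 only, 70 in replicate 2 only, and 553 in neither. With a peak of either replicate counted the share was 36.2% (314 regions, interval 33.0 to 39.5%), against 7.30% of other sites and 8.34% of all sites.

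Signal moved with this share. The 178 regions at a ctcf-/- site had a median WT 48 hpf pileup of 90.5 tags, the 136 with a peak in a single ctcf-/- list had 67 tags, and the 553 with none had 44 tags. Their mean peak widths in WT embryos at 48 hpf were alike, with medians of 568, 572.5 and 562 bp. In the top 10% of sites by pileup, 160 of 447 broad regions were at a ctcf-/- site (35.8%, interval 31.4 to 40.4%), against 419 of 1949 other sites (21.5%, interval 19.7 to 23.4%). Within this top 10%, however, broad regions had a median of 78 tags and other sites 64.5.

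Cut into 5 equal bins by pileup, these sites gave shares whose intervals overlapped. In the highest bin 105 of 180 broad regions were at a ctcf-/- site (58.3%, interval 50.8 to 65.6%), against 144 of 299 other sites (48.2%, interval 42.4 to 54.0%), with medians of 102 and 93.5 tags. Going down in pileup, the shares were 30.9% (interval 21.7 to 41.2%) and 26.5% (22.1 to 31.2%), then 22.1% and 19.5%, then 6.12% and 11.4%, and in the lowest bin 14.3% and 10.4%. At matched pileup the broad regions were above other sites in 4 of the 5 bins, by up to 10.2 percentage points, and below them in the other. Over all sites the ratio of the shares was 7.65, and within each of these bins it was smaller. Ranked by fold enrichment percentile in place of pileup, a wider gap remained. In the top 10% by fold enrichment 43.8% of broad regions were at a ctcf-/- site (interval 37.4 to 50.3%), against 14.1% of other sites (12.7 to 15.6%). In the next 10% it was 13.0% against 4.61%, and then 7.74% against 1.74%. Broad regions had the higher pileup in these bins, with medians of 84, 57.8 and 44.5 tags against 57.5, 39 and 30.5 tags. The finer binning by pileup was chosen after the data were seen.

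**Figure D5:**
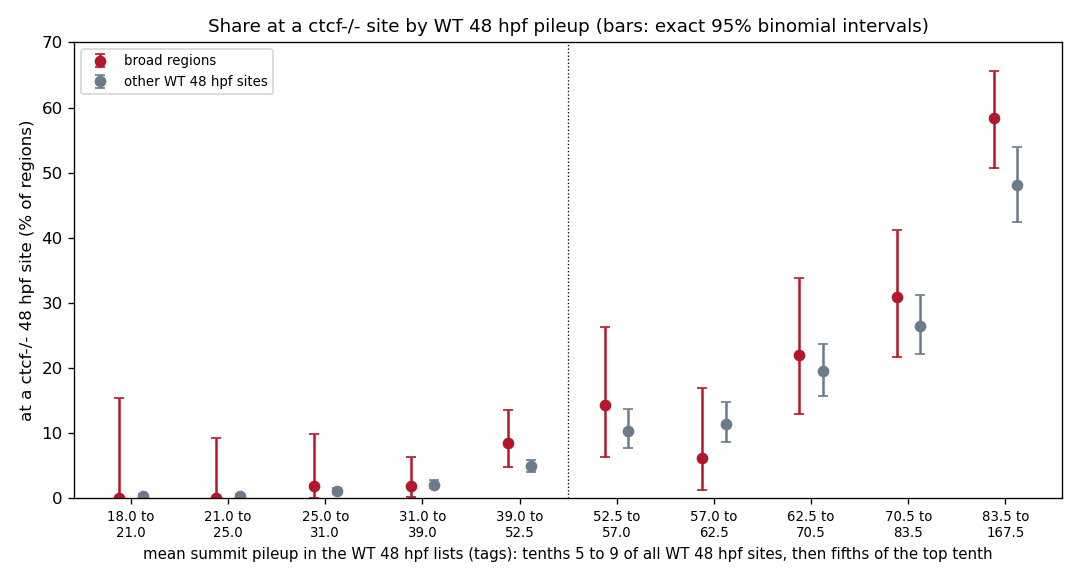
Percent of broad regions (red) and other WT 48 hpf sites (grey) at a ctcf-/- site, by mean summit pileup in the WT 48 hpf lists in tags, with exact 95% binomial intervals. Left of the dotted line each bin holds 10% of all WT 48 hpf sites, and right of it are the 5 equal bins of the top 10%. In both sets the share was highest in the bin of highest pileup, at 58.3% and 48.2%, and the intervals overlap in every bin shown.

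Most broad regions of high local background lay at a ctcf-/- site, 28 of the 39 (71.8%, interval 55.1 to 85.0%). The same share is not given for the 195 other sites with high background, so it is not known to be particular to broad regions. Without the 39 the share was 18.1% (150 of 828 regions, interval 15.6 to 20.9%). Regions with a single summit position over the WT lists were at a ctcf-/- site in 26.0% of cases (142 of 547), and those with several in 11.2% (36 of 320), in the order of their pileups given above. With positions counted without WT 24 hpf replicate 1 the shares were 21.9% (interval 18.9 to 25.1%) and 14.1% (8.94 to 20.7%).

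The strongest broad regions at a ctcf-/- site, ranked by fold enrichment percentile, were of moderate length. At chr9:54692689-54693193 the peaks were 290 and 365 bp wide in ctcf-/- embryos, 500 and 493 bp in WT embryos at 48 hpf and 657 and 492 bp at 24 hpf. The summit pileups there were 14 and 42 tags in ctcf-/- embryos, 146 and 141 tags in WT embryos at 48 hpf, and 242 and 123 tags at 24 hpf. The ctcf-/- replicates differed 3-fold at this region, and replicate 2, the shallower library, had the higher pileup. At chr20:46637815-46638330 they were alike, at 31 and 32 tags, against 105 and 112 tags in WT embryos at 48 hpf, with widths of 273 and 237 bp against 500 and 506 bp. The others were chr14:16179243-16179799 (27 and 32 tags in ctcf-/- embryos, 154 and 149 in WT embryos at 48 hpf), chr3:50036939-50037577 (12 and 13 tags, 128 and 123) and chr6:48490003-48490561 (32 and 28 tags, 126 and 133). In these 5 regions every ctcf-/- peak was narrower than the peaks of WT embryos at 48 hpf, and the 4 WT summits fell within 13 to 78 bp of each other. Pileups are not normalized between libraries.

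Along the genome the broad regions were spaced much like the other sites, while their share varied between chromosomes. On the numbered chromosomes, the share of WT 48 hpf sites that were broad was lowest on chromosome 1, at 2.21% (22 of 995 sites, interval 1.39 to 3.33%). It was highest on chromosome 7, at 4.71% (60 of 1273 sites, interval 3.62 to 6.03%). These intervals do not overlap, but the 2 chromosomes were picked as the extremes. Their nearest WT 48 hpf site was a median of 14.7 kb away, against 15.6 kb for other sites, and 33.1% had a site within 10 kb (interval 30.0 to 36.3%), against 34.8% of other sites. The median number of sites within 100 kb was 4 in both sets. Pairs of neighbouring broad regions within 10 kb of each other numbered 12, and within 100 kb there were 97. Broad regions were thus not placed in denser stretches of CTCF sites than the others.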

How the data were processed

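CTCF ChIPmentation was done in ctcf-/- embryos at 48 hpf and WT embryos at 48 and 24 hpf, 2 replicates each (6 libraries). Per the labels and the study's methods, the authors aligned reads with Bowtie2 to GRCz10 (danRer10), removed read pairs over 2 kb apart and called peaks with MACS2 in each library at an FDR of 0.001, without pooling replicates. Whether an input control was used is not given in the sources used here. The deposited fold enrichment is a linear ratio of summit pileup to local background, with the same small constant added to each. The deposited −log10 p and −log10 q values are those of the summit. The deposited score column was not used.

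Widths and summits came from the deposited positions. Pileup and local background were solved from fold enrichment and −log10 p, which fitted within 0.002 in 100% of peaks of every list. These are recovered values and none is normalized between libraries. The depth per library in reads is unknown; the lowest local background of a list, in tags per 10 kb, stands for relative depth. A library's depth sets which flanks of a peak pass the threshold, so widths were also ranked within each list. Where a region held several peaks of a list, its widest peak gave the width and the peak with the highest −log10 q gave the summit, pileup and fold enrichment. Peaks were intersected at an overlap of 1 bp in Python 3.11.15 (scipy 1.17.1, pandas 2.3.3, numpy 2.4.6; figures with matplotlib 3.10.9). The functions were tested on simulated data: 800 of 800 simulated wide regions were found and 100% of 5000 simulated pileups were returned.

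The regions and measures were chosen with earlier results of these data known. Regions were named by rule: the 6 widest by mean peak width in the WT 48 hpf lists on chromosomes 1 to 25 with low background, the 3 widest of all by the same measure, the 5 with most peaks in WT 24 hpf replicate 2, the 5 at a ctcf-/- site with the highest mean fold enrichment percentile, and 3 on each side of the threshold. No test was run over regions. The alternatives were other width percentiles, overlaps, q thresholds, peak choices and leaving out each replicate. CTCF motifs and gene annotation were not analysed here, since no danRer10 sequence or annotation was used.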

Additional observations from a re-analysis of the deposited data

How the results depend on the processing

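In the shares at a WT 24 hpf site and at a ctcf-/- site, broad regions were above other sites under every alternative run, but the gaps changed in size. The gap at a WT 24 hpf site, 25.01 percentage points, was 5.703 points without WT 24 hpf replicate 2. It was 12.9 points without peaks of high local background, 20 or more times the genome background, in any list. The gap at a ctcf-/- site, 17.85 points, was 8.749 points at a −log10 q of at least 10. With width ranked within bins of −log10 q it was 8.845 points. Of the values describing the regions, 50 stayed within their interval or spread and 48 moved, in part by construction, since most alternatives change which regions are chosen. The measures below are the number of regions, the share wide in both WT 24 hpf lists (width share), the share split into 2 or more peaks in a list (split share), the share with WT 48 hpf summits over 100 bp apart (summit share), the shares at a WT 24 hpf site and at a ctcf-/- site, the share with high background, and the mean of the replicates' median fold enrichment percentiles. Keeping the widest 10% of peaks gave 1915 regions, a width share of 25.1%, a ctcf-/- site share of 15.4% and a high background share of 2.51%. Keeping the widest 1% gave 154 regions, with shares of 71.9% (width), 17.5% (split), 5.19% (summit), 28.6% (ctcf-/- site) and 16.2% (high background), and a percentile of 78.6. Ranking width within each of 10 bins of −log10 q gave 475 regions, with shares of 13.9% (split), 20.8% (summit), 91.6% (WT 24 hpf site), 12% (ctcf-/- site) and 7.37% (high background), and a percentile of 63.4. A −log10 q of at least 10 in every list left 568 regions, with shares of 4.75% (split), 94.9% (WT 24 hpf site) and 10.9% (ctcf-/- site). Without peaks of high local background in any list the shares were 34.8% (width), 85.9% (WT 24 hpf site), 16.8% (ctcf-/- site) and, by construction, 0% (high background), and the percentile was 85.1. Requiring the kept summits within 100 bp gave a summit share of 0.124%, also by construction, and a percentile of 85.5. With a ctcf-/- peak of either replicate the share was 36.2%, and with summits of both WT 24 hpf lists inside the region 97.6%.

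Leaving out a WT 48 hpf replicate removes the demand that both be wide, and gave 1661 regions without replicate 1 and 1552 without replicate 2. Over all left-out replicates the width share ran from 26.5 to 72.3%, the split share from 12.6 to 12.9%, the WT 24 hpf site share from 96.2 to 100%, the ctcf-/- site share from 13.3 to 28.6% and the percentile from 79.7 to 81.3. A −log10 q of at least 5, a reciprocal overlap of 50% and chromosomes 1 to 25 alone left all of these measures within their interval or spread. No paired analysis was possible because the results come from no test and replicate numbers do not tie libraries across groups. The planned motif search and its alternative were not run. The ctcf-/- lists are the shallowest, so a missing ctcf-/- peak says only that none passed the threshold at that depth.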
